A study of Mus musculus with 4 samples.

Results

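Adipocyte and adipokine genes were followed in the tibialis cranialis, the shin muscle of the hind limb, of mice on a high fat diet. The 9 genes, Adipoq, Lep, Retn, Cfd, Fabp4, Plin1, Cidec, Pparg and Car3, were listed by name for their known roles in fat cells, out of 18193 genes named on the array. A gene was measured where at least 1 probe set was assigned to it alone, and was read at the probe set with the highest mean over the arrays. Of the 9 genes, 7 had such a probe set. Cfd (adipsin, a complement protease secreted by fat) and Plin1 (perilipin 1, the coat protein of the adipocyte lipid droplet) had none in the probe table and were not analysed here.

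ProMyo muscle received AAV8 ProMyo, an adeno-associated virus that carries the myostatin propeptide. Myostatin holds back muscle growth, and its propeptide keeps it inactive. Saline muscle was the same muscle of the other leg of the same animals, injected with saline and with no empty vector, so that the vector and myostatin inhibition cannot be told apart. All animals were male C57Bl/6 mice, 8 in number, on the high fat diet from 8 weeks of age. They were injected after 4 weeks of diet and sampled 10 weeks after injection, at 22 weeks of age, and no animal on another diet was analysed here. RNA of 4 animals was mixed per array, which gave pools 1-4 and 5-8 for each treatment and 2 arrays per group. The promoter that drives the transgene is not given in the sources used here. Because each array holds a mixture, the spread between animals of a pool was not measured. The p-values and standard errors rest on the spread between 2 pools, drawn by the test towards the spread of all genes.

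White adipocytes store triglyceride in a single large droplet and secrete hormones, the adipokines, that report on fat stores. Their identity is set by PPAR-gamma (Pparg) together with the C/EBP factors, which switch on the genes for droplet proteins, fatty acid carriers and adipokines. Whole muscle holds fat cells between its fibres and fascicles, and a dissected sample can also carry fat from the surrounding fascia. Some genes of the adipocyte programme are also used outside fat: Fabp4 in capillary endothelium and macrophages, and Car3 in muscle fibres, slow ones above all.

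The promoter windows of 3 of these genes are shown because the values described below turn on them: Adipoq and Pparg shared a high value in 1 array, and Lep stayed near background. RefSeq windows of build GRCm38.p6 run from 250 bases before to 50 after the annotated start and were given for 7 of the 9 genes. These are not the 7 measured genes: Cfd and Plin1 had windows, and Fabp4 and Car3 had none. For Pparg the most downstream of its annotated starts is shown. Capitals mark matches to TTGCNNAA, a degenerate C/EBP motif, on either strand, which includes the palindrome TTGCGCAA. The Adipoq window (chr16:23146286-23146585, plus strand) held none of the motifs searched, the Lep window (chr6:29059971-29060270, plus strand) held TTGCGCAA from 55 bases before the start, and this Pparg window (chr6:115421816-115422115, plus strand) held TTGCNNAA from 215 and from 16 bases before the start.
Adipoq: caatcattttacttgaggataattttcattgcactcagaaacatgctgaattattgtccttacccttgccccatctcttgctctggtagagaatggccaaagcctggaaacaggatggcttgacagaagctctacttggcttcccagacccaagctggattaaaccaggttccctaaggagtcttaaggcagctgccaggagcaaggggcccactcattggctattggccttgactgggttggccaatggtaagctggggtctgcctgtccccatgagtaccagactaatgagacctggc
Lep: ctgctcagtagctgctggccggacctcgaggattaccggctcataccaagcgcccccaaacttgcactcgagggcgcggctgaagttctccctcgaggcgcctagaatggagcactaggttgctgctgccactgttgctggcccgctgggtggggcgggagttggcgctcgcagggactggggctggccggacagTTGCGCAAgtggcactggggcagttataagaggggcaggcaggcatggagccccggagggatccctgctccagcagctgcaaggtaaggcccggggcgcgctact
Pparg: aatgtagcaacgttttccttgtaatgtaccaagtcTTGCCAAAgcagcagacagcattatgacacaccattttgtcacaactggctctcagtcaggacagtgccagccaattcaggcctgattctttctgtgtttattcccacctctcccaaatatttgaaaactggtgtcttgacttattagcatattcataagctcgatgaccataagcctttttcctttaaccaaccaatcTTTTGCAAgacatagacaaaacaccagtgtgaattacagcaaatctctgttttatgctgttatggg
Over all 32851 windows in the RefSeq table, TTGCGCAA was in 0.183%, TTGCNNAA in 10.8%, AGGTCA (the core of nuclear receptor sites) in 16.3% and TATAAA in 13.6%, all searched on both strands. Of the 10 windows of the listed genes, 1 held TTGCGCAA (Lep), 4 held TTGCNNAA, 2 held AGGTCA (both at other starts of Pparg) and 1 held TATAAA. A direct repeat of AGGTCA with 1 base between the copies, the element bound by PPAR-gamma with RXR, was in 0 of the 10 with at most 2 mismatches and in 3.86% of all windows. These matches describe letters in a short window and say nothing on binding.

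On GRCm38.p6 the measured genes lie at chr16:23146536-23157968 (Adipoq), chr6:29060221-29073876 (Lep), chr8:3655770-3659818 (Retn), chr3:10204342-10208616 (Fabp4), chr6:113424634-113435760 (Cidec), chr6:115360879-115490404 (Pparg) and chr3:14863538-14872381 (Car3). The place of a probe set within its gene was not analysed here. Levels of different probe sets are not comparable with each other, so genes are set against themselves across arrays.

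Adipoq encodes adiponectin, a hormone made almost wholly by adipocytes. Its log2 level was 1.39 and 0.81 in ProMyo muscle (pools 1-4 and 5-8), against 1.11 and 2.27 in saline muscle. The saline array of pool 5-8 was the high one, 0.89 log2 units above the next, and the groups overlapped. All 4 values lay above the highest Bacillus control of their own array. These 27 control probe sets, for which no target was expected, marked the background and peaked at 0.57 to 0.99. The ProMyo 5-8 value, however, was below the highest control of any array, 0.99. ProMyo minus saline was 0.27 within pool 1-4 and -1.47 within pool 5-8, with a mean of -0.60 ± 0.43 (log2 ± SE, n = 2 per group; limma, adjusted p = 0.859 over 15102 genes). Leaving out saline 5-8 brought the difference to -0.015.

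Pparg, the master regulator of fat cell formation, had log2 levels of 1.98 and 1.93 in ProMyo muscle, against 1.93 and 2.93 in saline muscle. The other 3 arrays lay within 0.06 of each other, and saline 5-8 stood 0.94 above the highest of them. The difference was 0.06 within pool 1-4 and -0.99 within pool 5-8, with a mean of -0.47 ± 0.35 (log2 ± SE, n = 2 per group; limma, adjusted p = 0.860). Leaving out saline 5-8 brought it to 0.03, with the sign turned. In both genes the difference between legs lay in pool 5-8 and came with the same high array.

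Retn encodes resistin, an adipokine of mouse fat that opposes insulin action. Its log2 level was 1.51 and 0.82 in ProMyo muscle, against 1.74 and 1.51 in saline muscle. Here ProMyo 5-8 was the low array and saline 1-4 the highest, and the groups overlapped only just, at 1.51. ProMyo minus saline was -0.23 within pool 1-4 and -0.69 within pool 5-8, with a mean of -0.46 ± 0.27 (log2 ± SE, n = 2 per group; limma, adjusted p = 0.840). The ProMyo 5-8 value lay below 0.99, and the difference was -0.11 without that array and -0.81 without ProMyo 1-4. Retn was the 1 tested gene of the list that was lower in ProMyo muscle in both pools, and its saline 5-8 level did not share the peak of Adipoq and Pparg.

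Lep encodes leptin, the satiety hormone whose secretion follows fat mass. Its log2 level was 0.50 and 0.70 in ProMyo muscle, against 0.58 and 0.66 in saline muscle. Only the ProMyo 5-8 value exceeded its own array's highest Bacillus control, so that most of its values cannot be told from background. Cidec, which fuses small lipid droplets into large ones, gave 0.69 and 0.26 in ProMyo muscle, against 0.36 and 0.32 in saline muscle. Its mean of 0.41 missed the minimum for testing (0.45, the 25th percentile of probe set means). Cidec exceeded its own array's highest control in ProMyo 1-4, by 0.69 against 0.68, and in no other array.

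**Figure D1:**
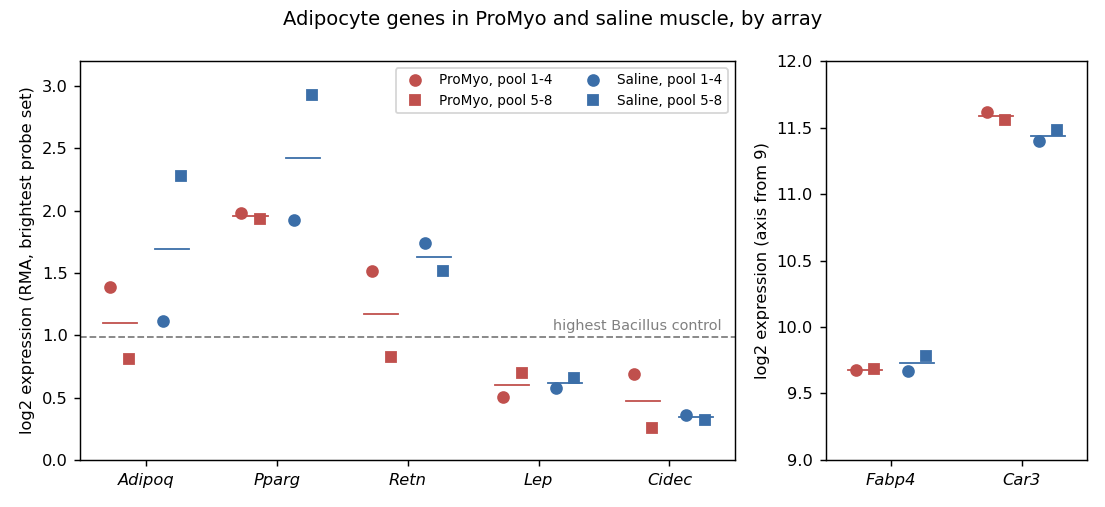
Log2 expression (vertical axis) of the 7 measured genes at their brightest probe sets, with ProMyo arrays left of saline arrays, circles for pool 1-4, squares for pool 5-8 and short lines for group means. Adipoq and Pparg are highest in saline 5-8, Lep and Cidec lie below the dashed line at 0.99, and Fabp4 and Car3, on an axis that starts at 9, vary by at most 0.22 over the 4 arrays.

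Fabp4 encodes the fatty acid carrier of adipocytes, also known as aP2. At its brightest probe set the log2 level was 9.67 and 9.68 in ProMyo muscle, against 9.67 and 9.78 in saline muscle. The 4 arrays spanned 0.11 and the groups overlapped. The mean difference was -0.05 ± 0.16 (log2 ± SE, n = 2 per group; limma, adjusted p = 0.977), with a 95% interval of -0.45 to 0.35. A second bright probe set read 9.40 and 9.26 in ProMyo muscle, against 9.36 and 9.33 in saline muscle, a mean difference of -0.02. Neither bright probe set shared the saline 5-8 peak of Adipoq, which was 1.17 above the mean of the other arrays, against 0.11 and -0.0061 at these probe sets.

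A dimmer probe set of Fabp4 did not follow the bright ones. It read 3.74 and 3.57 in ProMyo muscle, against 2.83 and 2.37 in saline muscle, so that both ProMyo arrays lay above both saline arrays. The difference was 0.90 within pool 1-4 and 1.19 within pool 5-8, with a mean of 1.05 ± 0.22 (log2 ± SE, n = 2 per group), or 2.07-fold. With limma over the 33778 probe sets that passed the filter its adjusted p was 0.764, and 1 probe set (0.00296%), of another gene or of no single gene, was called. Among the 12 probe sets of the listed genes above the filter it was the 1 that was at least 1.5-fold higher in both pools, against 1.67% of all probe sets tested. The faintest Fabp4 probe set differed by -0.26, with 1.38 and 1.30 in ProMyo muscle, against 1.54 and 1.66 in saline muscle. Which Fabp4 sequences the dim probe sets read was not analysed here.

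Car3 encodes carbonic anhydrase 3, a cytosolic enzyme abundant in rodent fat and in muscle fibres. Its log2 level at the brightest probe set was 11.62 and 11.56 in ProMyo muscle, against 11.40 and 11.48 in saline muscle. Both ProMyo arrays lay above both saline arrays, by a margin of 0.08. The difference was 0.22 within pool 1-4 and 0.08 within pool 5-8, with a mean of 0.15 ± 0.16 (log2 ± SE, n = 2 per group; limma, adjusted p = 0.894) and a 95% interval of -0.24 to 0.55. The next probe set pointed the same way, with 7.96 and 7.61 in ProMyo muscle, against 7.43 and 7.45 in saline muscle, a mean of 0.35. The remaining probe sets of Car3 had means of 0.22 and 0.16 but opposite signs in the pools: -0.07 in pool 1-4 and 0.50 in pool 5-8 for the brighter of them, and -0.27 and 0.58 for the dimmer. Of 10 slow fibre markers, 6 were lower and 2 higher in ProMyo muscle in both pools, with 0 called. Their part in the Car3 values was not tested.

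**Figure D2:**
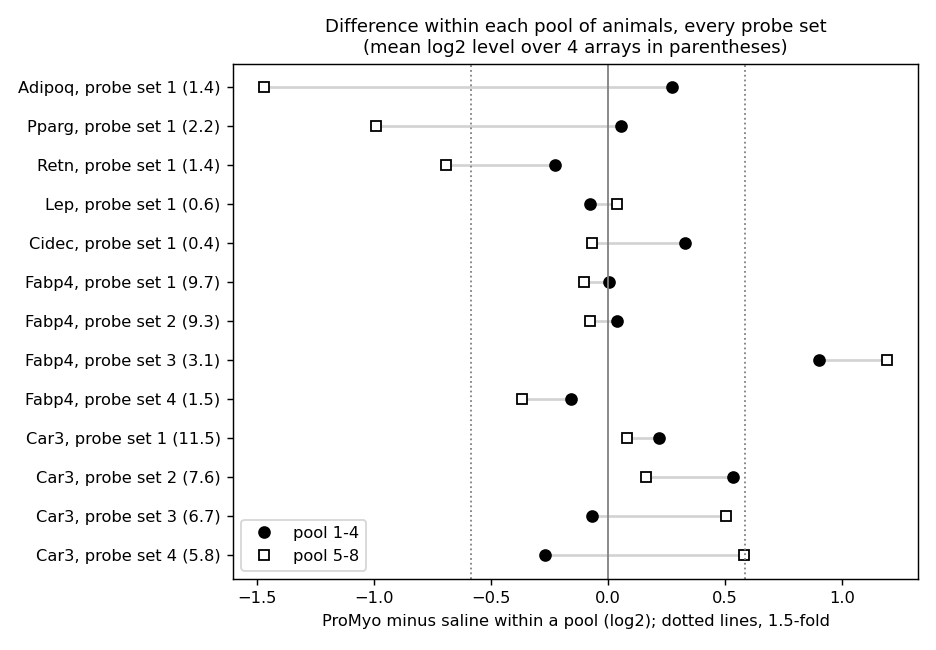
ProMyo minus saline (horizontal axis, log2) within pool 1-4 (filled circles) and pool 5-8 (open squares) for all 13 probe sets of the 7 measured genes, numbered by brightness within a gene. Adipoq and Pparg spread from about 0 or above in pool 1-4 to -1.47 and -0.99 in pool 5-8, and the third Fabp4 probe set is the one with both pools beyond the dotted 1.5-fold line.

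Over the 6 genes that passed the filter, limma called 0 between ProMyo and saline muscle (0 at an unadjusted p under 0.05), against 0 of 15102 genes over the array (0%), where 874 had an unadjusted p under 0.05. With the paired pools as a replicate block limma also called 0 genes, and 1039 had an unadjusted p under 0.05. The 95% intervals of Adipoq (-1.70 to 0.50), Pparg (-1.35 to 0.41) and Retn (-1.15 to 0.24) each span a decrease of more than 2-fold and an increase. None of the 6 genes was at least 1.5-fold apart in the same direction in both pools. Over all genes 1.03% were higher and 0.563% lower by this count, or 156 and 85 genes, which quantile normalization moved to 123 and 112. Both ProMyo arrays lay above both saline arrays for 1 of the 6 genes (Car3), against 17.8% of all genes, and below them for 0 of 6, against 15.7%. By sign within the pools 1 gene was higher in both (Car3), 1 was lower in both (Retn), and Adipoq, Pparg, Lep and Fabp4 went in opposite directions. Over all genes 29% were higher in both, 24% lower in both and 47% opposite. Had a decrease been called, fewer fat cells and less RNA per fat cell could not be told apart in whole muscle.

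The spread between pools was examined as a gauge of how much fat each sample carried. Pool 1-4 minus pool 5-8 was 0.58 in ProMyo muscle and -1.16 in saline muscle for Adipoq, and 0.05 and -0.9998 for Pparg. For Retn it was 0.69 in ProMyo muscle and 0.23 in saline muscle, the same sign in both legs. For Fabp4 it was -0.0081 in ProMyo muscle and -0.11 in saline muscle, for Lep -0.19 and -0.08, and for Car3 0.06 and -0.08. A large difference between pools was not shared by both legs: none of the 6 was 1.5-fold apart the same way in both treatments, against 1.09% of all genes higher and 0.596% lower in pool 1-4 (164 and 90 genes, or 117 and 103 after quantile normalization). With treatment as a term limma called 0 of the 6 (smallest adjusted p = 0.654, for Retn) and 0 of 15102 genes (0%), of which 1086 had an unadjusted p under 0.05. The high Adipoq and Pparg values were seen in the saline leg of pool 5-8 and not in the ProMyo leg of the same animals.

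That array, saline 5-8, also stood apart in its controls. Its upper quartile was 2.97, against 3.15 to 3.19 in the other 3 arrays, and its highest Bacillus control was 0.99, against 0.57 to 0.76. The mean of its hybridization spikes was 11.1, while the other arrays had 10.1 to 10.2. The 3' minus 5' signal of Gapdh, a sign of RNA integrity, was 0.58 and 0.74 in ProMyo muscle, against 0.90 and 0.81 in saline muscle, and so was not extreme in this array. For Actb it was 1.64 and 1.72 in ProMyo muscle, against 1.96 and 1.80 in saline muscle. Both signals were higher in both saline arrays than in both ProMyo arrays. Their part in the differences between treatments was not tested. Saline 5-8 was the highest array for 3 of the 6 tested genes (Adipoq, Pparg and Fabp4), against 21.1% of all genes. For Fabp4 the margin over the next array was only 0.10, and its second bright probe set was highest in ProMyo 1-4 (9.40). Adipoq, at 1.17, was among 27 genes (0.179%) with an excess at least this large, 15 of which lay at or below 0.99 in all other arrays, and 98 genes were at least as far below. For Pparg, at 0.98, the same count was 77 genes (0.51%), of which 43 lay at or below 0.99 elsewhere, with 227 as far below. What part of the Adipoq and Pparg values came with the array's brighter controls was not tested.

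The genes whose pattern over the 4 arrays was nearest to that of Adipoq were found by the root mean square distance after each gene's own mean was subtracted. The nearest of 15101 genes were Tmem80 (0.088 log2 units), Scd1 (0.094), Il12rb1 (0.098), Mpp4 (0.102), Pomc (0.107), C430002N11Rik (0.108), Mgat4d (0.111), Morn3 (0.132), Atp12a (0.132) and Tepp (0.139). Scd1, the stearoyl-CoA desaturase that makes monounsaturated fatty acids and is strongly expressed in fat, was the only one of them above a log2 level of 2 in all 4 arrays. It read 7.90 and 7.36 in ProMyo muscle, against 7.48 and 8.60 in saline muscle. Of the other nearest genes, 6 lay at or below 0.99 in every array but saline 5-8. Pparg ranked 52nd with a distance of 0.206. The other listed genes came far behind, Retn with 0.498, Fabp4 with 0.505, Lep with 0.552 and Car3 with 0.566. With 4 arrays many genes can share such a pattern, and the distance describes these arrays only.

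**Figure D3:**
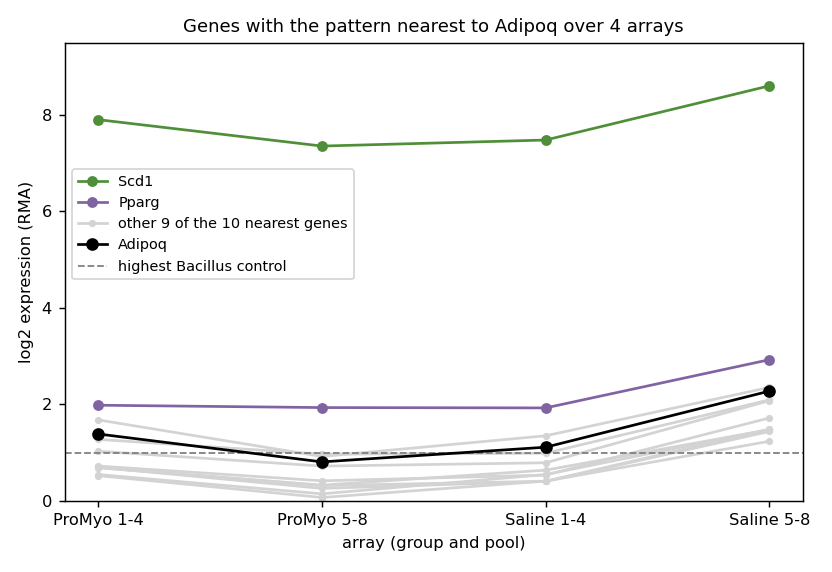
Log2 expression (vertical axis) in each array of Adipoq (black), Pparg (purple), Scd1 (green) and the other 9 of the 10 genes nearest to Adipoq (grey), with the highest Bacillus control as a dashed line. All are highest in saline 5-8, and most of the grey genes lie below the dashed line of 0.99 in the other arrays while Scd1 lies between 7.36 and 8.60.

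A longer list of adipocyte markers did not share 1 pattern. Of its 17 genes, 14 had a probe set, 10 averaged above 0.99 in at least 1 group, and Lep, Cidec, Lgals12 and Hcar1 did not. Of the 11 tested, 2 were higher and 1 lower in ProMyo muscle in both pools and 8 went opposite ways, with 0 called and a median of -0.05, against 0.013 over all genes (-0.019 after quantile normalization, -0.024 without saline 5-8). The saline 5-8 array was the highest for 4 of the 11 (Adipoq, Pparg, Fabp4 and Lipe), against 21.1% of all genes. It was also the lowest array for Plin4, Adig, Mrap (1.24) and Acvr1c (1.92), so the tested markers went both ways in it. Adig (adipogenin, a small protein of fat cells) read 3.96 and 3.02 in ProMyo muscle, against 2.62 and 2.16 in saline muscle, so that both ProMyo arrays were above both saline arrays. Its difference of 1.09 ± 0.36 (log2 ± SE, n = 2 per group) did not pass (limma, adjusted p = 0.822) and was 0.62 without ProMyo 1-4. Plin4, a perilipin of fat cells and muscle fibres, was lowest in saline 5-8, with 5.96 and 5.49 in ProMyo muscle, against 6.14 and 5.00 in saline muscle. Lipe, the hormone-sensitive lipase, was flat, with 1.53 and 1.39 in ProMyo muscle, against 1.48 and 1.55 in saline muscle. The summed linear signal of the 14 measured markers was 932.9 and 918.4 in ProMyo muscle, against 937.7 and 967.1 in saline muscle, highest in saline 5-8. Without Fabp4 the sum was 116.1 and 97.0 in ProMyo muscle, against 123.0 and 85.1 in saline muscle, lowest in saline 5-8. The order of the arrays thus turned on single bright probe sets, Fabp4 in the first sum and Plin4 in the second.

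**Figure D4:**
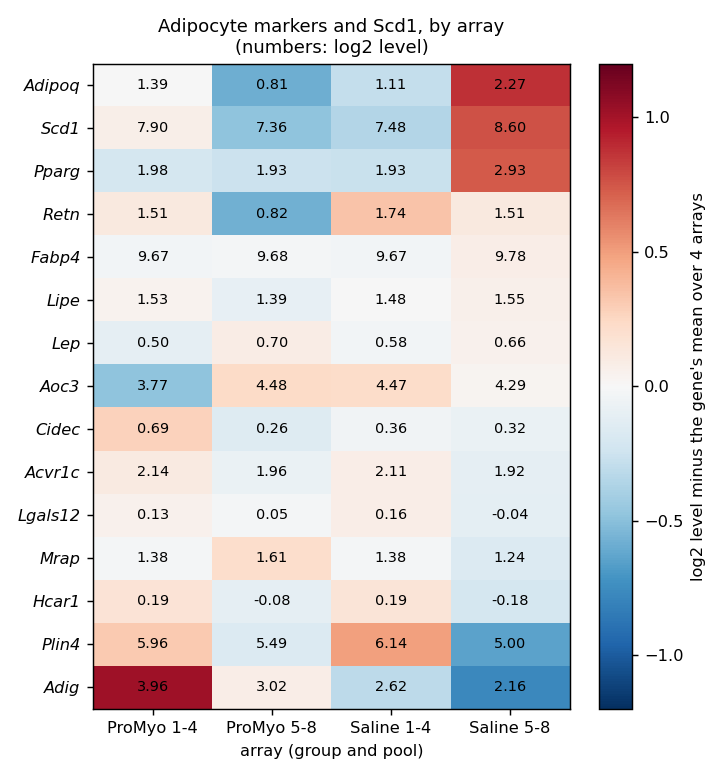
Log2 levels (numbers) of the 14 measured adipocyte markers and of Scd1 in each array, coloured by the distance from the gene's mean over 4 arrays and ordered by saline 5-8 minus the other arrays. Adipoq, Pparg, Fabp4 and Lipe are highest in saline 5-8, while Plin4, Adig, Mrap, Acvr1c, Lgals12 and Hcar1 are lowest there. Scd1 is not on the marker list. It was among the genes picked as nearest to Adipoq over these same arrays, so its peak in saline 5-8 follows from that choice.

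Factors that act beside PPAR-gamma in fat cell formation were next. Of 17 tested transcription genes, 1 was higher and 5 lower in ProMyo muscle in both pools, with 0 called and a median of -0.02 (0.07 without the saline 1-4 array). Cebpa, the partner of PPAR-gamma in mature adipocytes, read 2.76 and 2.43 in ProMyo muscle, against 3.77 and 3.08 in saline muscle. The groups did not overlap, and the difference was -1.01 within pool 1-4 and -0.65 within pool 5-8 (mean -0.83 ± 0.28, limma, adjusted p = 0.822), with a mean of -0.48 without saline 1-4. Cebpd, an early adipogenic factor, differed by -0.53 ± 0.28 at its brightest probe set and by -0.77 at the other, where ProMyo muscle read 1.95 and 1.85, against 2.73 and 2.60 in saline muscle. At the brightest it was -0.20 without saline 1-4 and -0.85 without saline 5-8. Klf5 differed by -0.45 ± 0.31, with saline 5-8 the high array at 1.69 (-0.041 without it). Its ProMyo 1-4 value there, 0.67, was below the highest control of its own array, 0.68. The second Klf5 probe set, which also lay at or near background, differed by 0.45. In Cebpa and Cebpd the saline 1-4 array was the highest, unlike in Pparg.

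Among droplet and lipolysis genes 5 of 17 were higher and 3 lower in both pools, with 0 called and a median of 0.04, which was -0.03 after quantile normalization, -0.14 without saline 5-8 and -0.02 without ProMyo 1-4. The 1 gene at least 1.5-fold higher in both pools was Pnpla3. Pnpla3, a lipid droplet acyltransferase and lipase, differed by 0.71 ± 0.23 and Cidea, a droplet protein of brown and beige fat, by 0.55 ± 0.23, both below 0.99 in saline muscle. Bscl2 (seipin, which shapes droplets at the endoplasmic reticulum) differed by -0.59 ± 0.33 at 1 probe set (-0.19 without saline 1-4, -0.99 without saline 5-8) and by -0.05 at the other. G0s2, an inhibitor of triglyceride lipase, differed by pool: 3.89 in pool 1-4 and 2.94 in pool 5-8 of ProMyo muscle, and 4.28 and 2.78 in saline muscle. In this list 10 of 17 genes were higher in pool 1-4 in both legs and 1 was lower, with a median of 0.34, against 0.06 over all genes. Adipoq differed between the pools in the same direction as this list in ProMyo muscle (0.58) and in the other direction in saline muscle (-1.16).

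Of 16 tested genes of fatty acid and triglyceride synthesis, 7 were higher and 5 lower in both pools, with 0 called and a median of 0.09 (-0.013 without saline 5-8, -0.018 without ProMyo 1-4). Scd1 differed by -0.41 ± 0.42 and by 0.15 without saline 5-8. Dgat1, which completes triglyceride synthesis, differed by -0.42 ± 0.23 (-0.22 without ProMyo 5-8), and Acaca, the acetyl-CoA carboxylase of lipogenesis, by 0.38 ± 0.24 (0.15 without ProMyo 5-8, 0.60 without ProMyo 1-4). A dim second Dgat1 probe set differed by 0.21 in pool 1-4 and -0.62 in pool 5-8. Genes of fatty acid uptake and binding were higher in both pools for 7 of 11 and lower for 0, with 0 called and a median of 0.19. Lmf1, which matures lipoprotein lipase, differed by 0.62 ± 0.25. Apoe, a lipoprotein ligand, differed by -0.40 ± 0.29, with 0.11 in pool 1-4 and -0.91 in pool 5-8, and by -0.018 without saline 5-8. Slc27a4, a fatty acid transporter, differed by 0.33 ± 0.46 and by -0.36 without saline 5-8. Fabp3, the fatty acid carrier of muscle fibres and the relative of Fabp4, read 11.38 and 11.04 in ProMyo muscle, against 11.05 and 10.85 in saline muscle (0.26 ± 0.20, and 0.091 without ProMyo 1-4).

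Of 15 tested adipokines and other secreted factors, 1 was higher and 4 lower in ProMyo muscle in both pools, with 0 called and a median of -0.15 (-0.025 without either ProMyo array, -0.050 without saline 1-4). Rarres2 (chemerin, an adipokine that attracts immune cells) read 5.48 and 5.39 in ProMyo muscle, against 6.13 and 5.65 in saline muscle, a difference of -0.45 ± 0.22 (-0.21 without saline 1-4, -0.70 without saline 5-8). Its other probe sets differed by -0.52 and -0.02. C1qtnf2, a paralogue of adiponectin, differed by 0.47 ± 0.20. Ccl2, a chemokine made by fat and by many other cells, went with the pool: 1.10 in pool 1-4 and 2.24 in pool 5-8 of ProMyo muscle, and 1.12 and 2.70 in saline muscle. Receptors and signalling genes for adipokines were higher in both pools for 6 of 16 and lower for 5, with 0 called and a median of 0.0033 (-0.0011 after quantile normalization, -0.017 without saline 1-4). Adipor1, the main adiponectin receptor of muscle, read 8.31 and 8.17 in ProMyo muscle, against 8.03 and 7.94 in saline muscle (0.25 ± 0.16). Its other probe sets differed by 0.053 and 0.058, the dimmer of them with opposite signs in the pools (0.27 and -0.16). Adipor2 differed by -0.13 ± 0.16 and Lepr, the leptin receptor, by 0.05 ± 0.25, with the sign turned without ProMyo 1-4 or saline 5-8 (-0.18 in each case). C3ar1, the receptor of a complement fragment, read 2.43 and 2.50 in ProMyo muscle, against 1.96 and 1.99 in saline muscle (0.49 ± 0.15; limma, adjusted p = 0.822). A second C3ar1 probe set above the controls differed by -0.079, with 0.16 in pool 1-4 and -0.32 in pool 5-8.

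In the carbonic anhydrase family 5 of 11 tested genes were higher and 4 lower in both pools, with 0 called and a median of -0.0089 (0.017 without saline 5-8). Car8, a family member without enzyme activity, read 3.22 and 2.71 in ProMyo muscle, against 2.16 and 1.08 in saline muscle (1.35 ± 0.40, and 0.81 without saline 5-8), and its other probe sets lay near background. Car14, a membrane-bound enzyme of muscle, differed by 0.52 ± 0.36, which was 0.017 without saline 5-8 and 1.02 without saline 1-4. Among the fatty acid binding proteins 2 of 5 were higher in both pools and 0 lower, with 0 called and a median of 0.09.

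**Figure D5:**
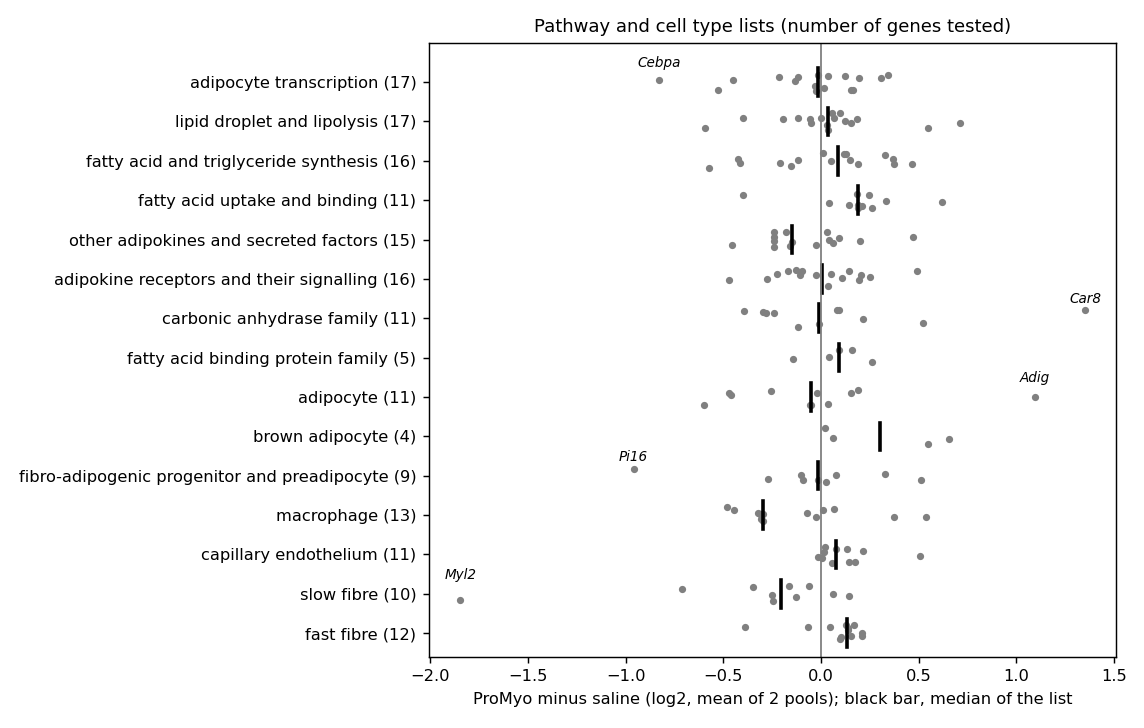
ProMyo minus saline (horizontal axis, log2, mean of 2 pools) for each tested gene of the pathway and cell type lists (grey points, jittered vertically), with the list medians as black bars and the number of genes tested in parentheses. Medians lie between -0.30 and 0.30, and the named genes stand apart, with Car8 (1.35) and Adig (1.09) on the right and Cebpa (-0.83), Pi16 (-0.96) and Myl2 (-1.85) on the left.

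Markers of cells that could share or carry these transcripts were read beside them. Of the brown fat markers, Ucp1 and Elovl3 were below the filter, and Dio2, which activates thyroid hormone, read 2.67 and 3.03 in ProMyo muscle, against 2.15 and 2.24 in saline muscle. The other Dio2 probe sets exceeded the controls in no array. Brown fat markers were higher in both pools for 3 of 4 and lower for 0, with a summed linear signal of 29.7 and 32.5 in ProMyo muscle, against 25.7 and 28.5 in saline muscle. Besides Dio2 these were Cidea, below 0.99 in saline muscle, and Prdm16. Prdm16 differed by only 0.06 ± 0.18 at its brightest probe set, with the sign turned after quantile normalization (-0.0077) or without ProMyo 5-8 (-0.060). Capillary markers, relevant to Fabp4, were higher in both pools for 4 of 11 and lower for 0, with a median of 0.07 (-0.025 without saline 5-8) and sums of 353.5 and 344.0 in ProMyo muscle, against 362.7 and 306.8 in saline muscle. Of 13 macrophage markers 6 were lower and 2 higher in both pools, with a median of -0.30 (-0.17 without ProMyo 1-4, -0.075 without ProMyo 5-8, -0.092 without saline 1-4) and sums of 370.8 and 332.4 in ProMyo muscle, against 410.1 and 371.1 in saline muscle. Of 9 progenitor markers 4 were lower and 2 higher in both pools, and sums were 491.8 and 448.5 in ProMyo muscle, against 460.9 and 467.4 in saline muscle. The progenitor median was -0.016, and 0.077 without ProMyo 5-8. Pi16, of fibroblast progenitors, read 2.58 and 2.83 in ProMyo muscle, against 3.81 and 3.51 in saline muscle. Dpp4, of the same progenitors, had the other sign, with 5.03 in both arrays of ProMyo muscle, against 4.45 and 4.58 in saline muscle (0.51 ± 0.16), as had Cd55 (0.33 ± 0.19). Dimmer Dpp4 probe sets above the controls gave less: 0.36 in pool 1-4 and -0.26 in pool 5-8 for 1, and 0.47 and 0.02 for the next. Slow fibre markers, relevant to Car3, had a median of -0.20 and sums of 630.4 and 590.6 in ProMyo muscle, against 894.1 and 702.8 in saline muscle. Fast fibre markers had a median of 0.13 and sums of 41990 and 40670 in ProMyo muscle, against 39810 and 37150 in saline muscle. A summed linear signal is weighted towards the brightest probe sets of its list, as with Fabp4 and Plin4 above. Among the progenitor markers the brightest was Dcn, with 8.02 and 7.72 in ProMyo muscle, against 7.87 and 7.81 in saline muscle. No gene of these lists was called, and what the cell types contributed to the adipocyte genes was not tested.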

How the data were processed

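Total RNA of tibialis cranialis muscle was measured on 4 Affymetrix mouse arrays, each a mixture of RNA from 4 animals, per the labels. The authors deposited log2 expression values per probe set, which the submitters' processing notes tie to RMA and Expression Console. Software versions were not given in the sources used here. For these values the log base was read from their range, -0.45 to 13.2. Of 45101 probe sets, 34945 had 1 gene symbol in GEO's platform table, 932 several and 9160 none, and 64 were array controls. RefSeq GRCm38.p6 was used to update the symbols by gene identifier: 34741 matched, 0 changed and 204 kept the table's symbol. Each gene was read at its brightest probe set, and 15102 genes with a mean of at least the 25th percentile (0.45) were tested, without further normalization. Beyond the choice of the brightest probe set, the filter, the background controls and the list sums, levels of different probe sets were not compared.

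The comparison of ProMyo and saline muscle used limma 3.58.1 (R 4.3.3, lmFit and eBayes) with Benjamini-Hochberg adjustment over all genes and a threshold of 0.05, with 2 residual degrees of freedom. The pools were compared with treatment as a term. Same-numbered pools come from the same mice, so they are paired by the design (correlation of their deviations across genes r = 0.16). The main comparison leaves the pairing out. The test was checked on simulated data, where it recovered hardly any changes of 2-fold or less and made a few false calls. A count of 0 called therefore does not show that changes of that size are absent. Alternatives were quantile normalization, median centring, averaging probe sets per gene, other thresholds, the block and leaving out each array. Named genes were the 9 listed ones, and, from each list, genes among the up to 3 with the largest difference between treatments or pools above the background controls, the 10 nearest to Adipoq, and members behind small counts. Lipe, Adipor2 and Fabp3 (as a fatty acid carrier) were added for their role. The genes, lists and rules were chosen with earlier results of these data known. Arrays have no read depth, and their number limits the precision, with a median standard error of 0.19.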

Additional observations from a re-analysis of the deposited data

How the results depend on the processing

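The counts of called genes were 0 under every alternative fit of both comparisons, except that limma over all probe sets, chosen after the data were seen, gave 1. At an unadjusted p under 0.05 the treatment comparison gave 874 genes. Genes 1.5-fold apart in both pools numbered 241, against 23 at 2-fold and 117 with probe sets averaged per gene, and between pools 254, against 15 and 135. The replicate block left 0 listed genes called. For the listed genes, 114 of 130 values under the alternatives kept their direction and 0 passed the threshold. The block, the treatment term, the filters and the trend cannot change a difference, nor can averaging for genes with 1 probe set. Between pools, leaving out either array of a treatment gives the same value. Many of these agreements were thus fixed in advance, and the count is no measure of stability. With the mean of all probe sets the Fabp4 difference between treatments was 0.18 and that between pools 0.080. After quantile normalization Lep stood at 0.025. Car3 between pools was 0.018 with median-centred arrays, 0.0099 after quantile normalization and 0.082 with the mean of its probe sets. Leaving out 1 array at a time, ProMyo minus saline ran from -0.97 to 0.031 for Pparg, -1.18 to -0.015 for Adipoq, -0.81 to -0.11 for Retn, 0.11 to 0.19 for Car3, -0.11 to 0.0077 for Fabp4 and -0.12 to 0.078 for Lep. Between pools it ran from -1.16 to 0.58 for Adipoq, -0.9998 to 0.049 for Pparg and -0.079 to 0.058 for Car3. With 3 arrays the comparison of pools has no residual degrees of freedom, so its counts were not recomputed. Lep and Cidec lay too near background for a difference to be read.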
